A study of Danio rerio with 12 samples.

Results

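The genes nfil3-5, bmal1a, bmal1b, bmal2 and rorcb are parts of the circadian clock. They were taken as every probe set of the Affymetrix Zebrafish Genome Array that the platform table assigns to one of these symbols alone. That gave 6 probe sets of 15502 tested, or 5 of 8793 genes, with 1 probe set for each gene except bmal2, which has 2. Their NCBI Gene identifiers in the platform table are 335737 for nfil3-5, 58098 for bmal1a, 352935 for bmal1b, 58099 for bmal2 and 562258 for rorcb.

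In the vertebrate clock, BMAL proteins pair with CLOCK or NPAS2 and activate genes through E-box elements, among them their own repressors of the period and cryptochrome families. A second loop controls the bmal genes: nuclear receptors of the ROR family activate, and those of the REV-ERB family repress, through a shared DNA element. Another loop runs through the D-box, where NFIL3 (also called E4BP4) represses and the PAR bZIP proteins DBP, TEF and HLF activate. In zebrafish the clock runs in peripheral tissues, the heart included, and these can be set by light directly. Zebrafish keep several duplicates of most of these genes.

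Total RNA from hearts of sexually mature adults was hybridised to 12 arrays, in 4 groups of 3. Fish of the AB line served as wild type (WT). The dnHIF1a line carries a transgene (Tg) in which cmlc2a:Ert2-Cre-Ert2 is joined to cmlc2a:LnL:GFP, together with cmlc2a:LrL:dnHIF1a. These names place a Cre fused to Ert2, GFP and dnHIF1a behind cmlc2a, a promoter of heart muscle, so other heart cells would not be expected to drive them. The prefix dn usually stands for dominant negative, and HIF1a is the oxygen-regulated subunit of a transcription factor. In each line one group was untreated and the other was collected 7 days after amputation. The labels do not say which part was amputated, whether tamoxifen was given, what background the transgenic line has, how many hearts an array holds, or at what time of day hearts were collected. Neither amputation nor line can therefore be told apart from time of collection in what follows, nor the transgene from the background of its line. Each p-value rests on how far these arrays differ among themselves, which may be technical.

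Values are log2 expression after robust multi-array averaging (RMA) by the authors. Array medians lay between 5.55 and 5.59, and Pearson correlations across probe sets were 0.992 to 0.996 within groups and 0.976 to 0.99 between them. The heart label was checked with markers: the mean of 8 heart muscle genes was 12.50 to 12.98 on the 12 arrays and that of 6 liver genes 4.58 to 4.93. Each difference is amputated minus unamputated, or dnHIF1a minus WT, on the log2 scale, with ± its standard error from a limma fit over all probe sets. A gene was called at a Benjamini-Hochberg adjusted p under 0.05.

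After amputation 3 of the 5 genes fell in both lines, nfil3-5, bmal1a and rorcb, and none rose. Over all genes 26.2% were called in WT, 11.7% higher and 14.5% lower. In dnHIF1a 11.0% were called, 5.83% higher and 5.13% lower. The genes were chosen with earlier results of these arrays known, so their count is a description. Differences of bmal1b and bmal2 (brighter probe set) were under 0.2 in size and passed the test in neither line.

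**Figure D1:**
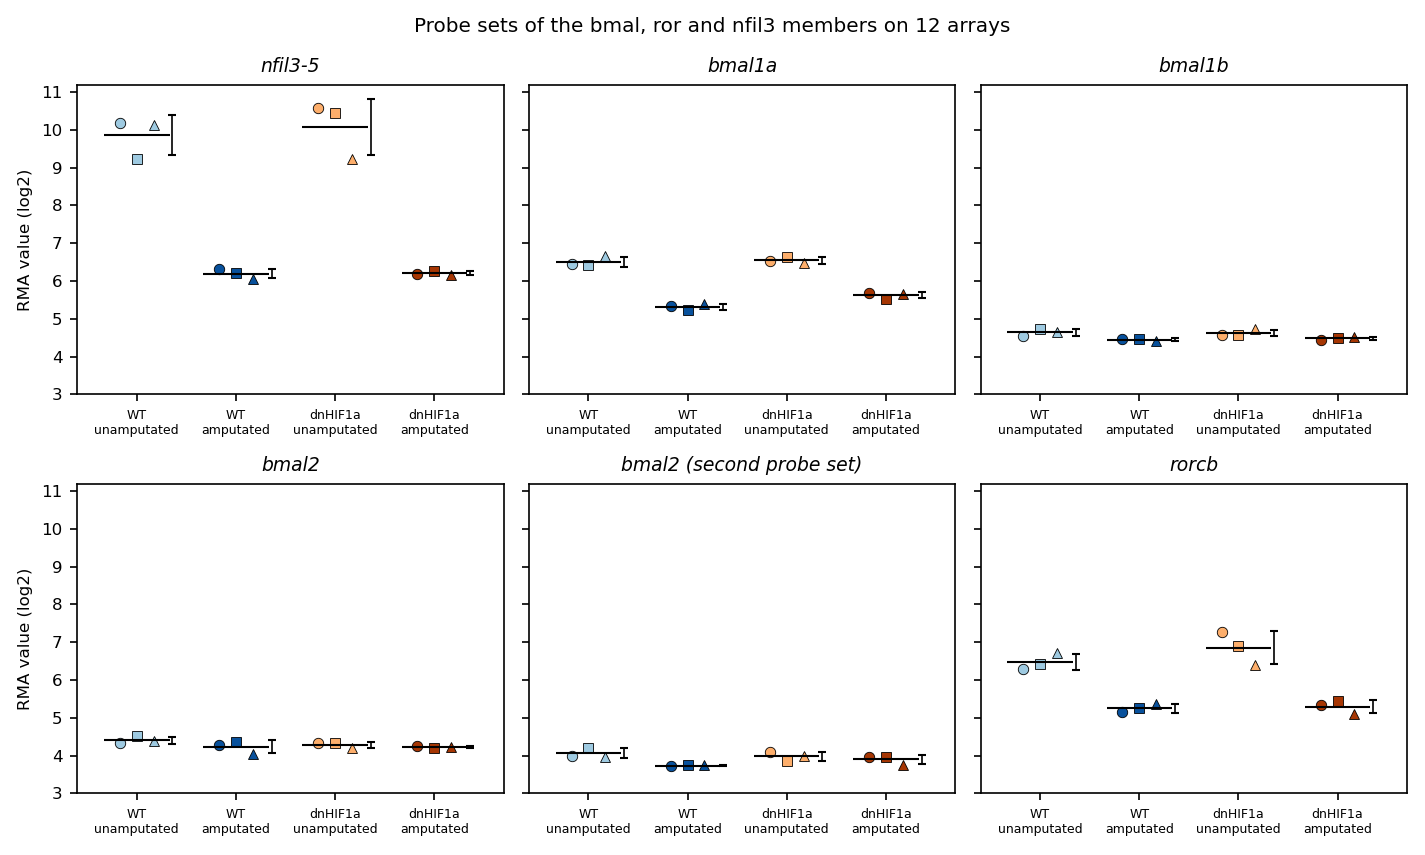
RMA values (log2, vertical axis) of the 6 probe sets on the 12 arrays, with circle, square and triangle for arrays 1, 2 and 3 of each group, a line at the group mean and a bar of ± 1 SD beside it. The amputated arrays of nfil3-5 lie between 6.06 and 6.31, all below the unamputated ones at 9.22 to 10.58, while bmal1b and bmal2 stay between 3.71 and 4.72.

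The repressor gene nfil3-5 read 10.18, 9.24 and 10.14 on unamputated WT arrays 1, 2 and 3 and 6.31, 6.21 and 6.06 on amputated ones. In dnHIF1a it read 10.58, 10.44 and 9.22 unamputated and 6.18, 6.26 and 6.17 amputated. The groups did not overlap in either line, and the smallest gap between an unamputated and an amputated array of one line was 2.93. The fall was 12.6-fold in WT (-3.66 ± 0.31, limma adjusted p = 7.13e-06) and 14.7-fold in dnHIF1a (-3.88 ± 0.31, limma adjusted p = 1.49e-05). In both lines it was the lowest difference of the 15502 probe sets tested.

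The arrays of unamputated hearts differed among themselves in nfil3-5 far more than those of amputated hearts. The SD was 0.53 in unamputated WT and 0.75 in unamputated dnHIF1a hearts, against 0.13 and 0.049 after amputation (n = 3 each). The lowest were WT array 2 at 9.24, with the others of its group at 10.14 and 10.18, and dnHIF1a array 3 at 9.22, with the others at 10.44 and 10.58. Since limma pools the spread of the 4 groups, the standard error of a difference is 0.31 in both lines and does not show these unequal spreads.

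Levels of nfil3-5 did not differ between the lines by the test in either state. Unamputated hearts averaged 10.08 ± 0.75 (SD, n = 3) in dnHIF1a and 9.85 ± 0.53 in WT, a difference of 0.23 with a 95% interval from -0.44 to 0.90. Amputated hearts averaged 6.20 ± 0.049 and 6.19 ± 0.13, a difference of 0.01 (interval -0.66 to 0.68). The responses differed by -0.22 ± 0.44 (dnHIF1a minus WT, interval -1.16 to 0.73, limma adjusted p = 0.843). None of the 5 genes was called for this difference of responses, against 2.59% of all genes.

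The activator gene bmal1a, which encodes a partner of CLOCK, read 6.44, 6.42 and 6.66 in unamputated and 5.33, 5.23 and 5.39 in amputated WT hearts. In dnHIF1a it read 6.53, 6.64 and 6.47 before and 5.68, 5.53 and 5.65 after amputation. Every amputated array lay below every unamputated one. The fall was 2.28-fold in WT (-1.19 ± 0.084, limma adjusted p = 1.67e-06) and 1.90-fold in dnHIF1a (-0.93 ± 0.084, limma adjusted p = 3.72e-05).

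Group means of bmal1a ran from 6.55 (unamputated dnHIF1a) through 6.51 (unamputated WT) and 5.62 (amputated dnHIF1a) to 5.32 (amputated WT). The top pair did not differ by the test (0.04 ± 0.084, limma adjusted p = 0.831), and 0 of the 5 genes were called between unamputated lines, where 12.5% of all genes were called. In amputated hearts bmal1a was 1.23-fold higher in dnHIF1a (0.30 ± 0.084, limma adjusted p = 0.0332), the only 1 of the 5 genes called there, against 14.2% of all genes. The lowest dnHIF1a array stood 0.14 above the highest WT array. The call was lost without amputated dnHIF1a array 1 (limma adjusted p = 0.115) or 3 (0.0892), or amputated WT array 1 (0.0792) or 2 (0.108). The difference of the bmal1a responses, 0.26 ± 0.12, did not pass the test (limma adjusted p = 0.28, unadjusted 0.0467).

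The paralog bmal1b read 4.55 to 4.72 in unamputated and 4.40 to 4.47 in amputated WT hearts. In dnHIF1a its ranges were 4.58 to 4.72 and 4.44 to 4.52. The amputated arrays lay below the unamputated ones in both lines, by gaps of 0.08 and 0.06. Neither difference passed the test (-0.19 ± 0.070, limma adjusted p = 0.0638 in WT and -0.14 ± 0.070, limma adjusted p = 0.261 in dnHIF1a), but the WT difference did without unamputated WT array 1 (-0.24, limma adjusted p = 0.0409). The mean of bmal1b over the arrays was below that of 68.4% of probe sets. The files carry no background measure, so a small difference at that level may understate a change.

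For bmal2, a further BMAL gene, the brighter probe set read 4.32, 4.51 and 4.38 in unamputated and 4.29, 4.37 and 4.05 in amputated WT hearts. Its ranges in dnHIF1a were 4.20 to 4.33 and 4.21 to 4.26. The groups overlapped in both lines, and neither difference passed the test (-0.17 ± 0.088, limma adjusted p = 0.194 in WT and -0.06 ± 0.088, limma adjusted p = 0.778 in dnHIF1a). Without amputated WT array 3 the WT difference was -0.07 (limma adjusted p = 0.583). The second bmal2 probe set, dimmer still, read 3.97 to 4.21 in unamputated and 3.71 to 3.75 in amputated WT hearts. It fell in WT (-0.32 ± 0.089, limma adjusted p = 0.0206) and not by the test in dnHIF1a (-0.08 ± 0.089, limma adjusted p = 0.669). That WT call was lost without unamputated WT array 2 (limma adjusted p = 0.076) or amputated WT array 1 (0.0616). Since 81% of probe sets have a higher mean, and the 2 bmal2 probe sets gave different calls in WT, whether bmal2 fell there is uncertain, although both read lower after amputation.

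The receptor gene rorcb encodes a member of the ROR family of nuclear receptors. It read 6.29, 6.43 and 6.72 in unamputated and 5.14, 5.25 and 5.37 in amputated WT hearts. In dnHIF1a it read 7.26, 6.90 and 6.39 before and 5.33, 5.44 and 5.10 after amputation. No amputated array of either line reached the lowest unamputated one. The fall was 2.34-fold in WT (-1.23 ± 0.18, limma adjusted p = 0.000572) and 2.95-fold in dnHIF1a (-1.56 ± 0.18, limma adjusted p = 0.000213).

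Among unamputated hearts rorcb averaged 6.85 ± 0.44 in dnHIF1a and 6.48 ± 0.22 in WT (SD, n = 3), and the ranges overlapped. The difference of 0.37 ± 0.18 did not pass the test (limma adjusted p = 0.238), but did so without unamputated dnHIF1a array 3 (0.60, limma adjusted p = 0.0268). After amputation the lines read 5.29 ± 0.17 and 5.25 ± 0.12. The responses differed by -0.33 ± 0.26 (interval -0.89 to 0.23, limma adjusted p = 0.561).

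**Figure D2:**
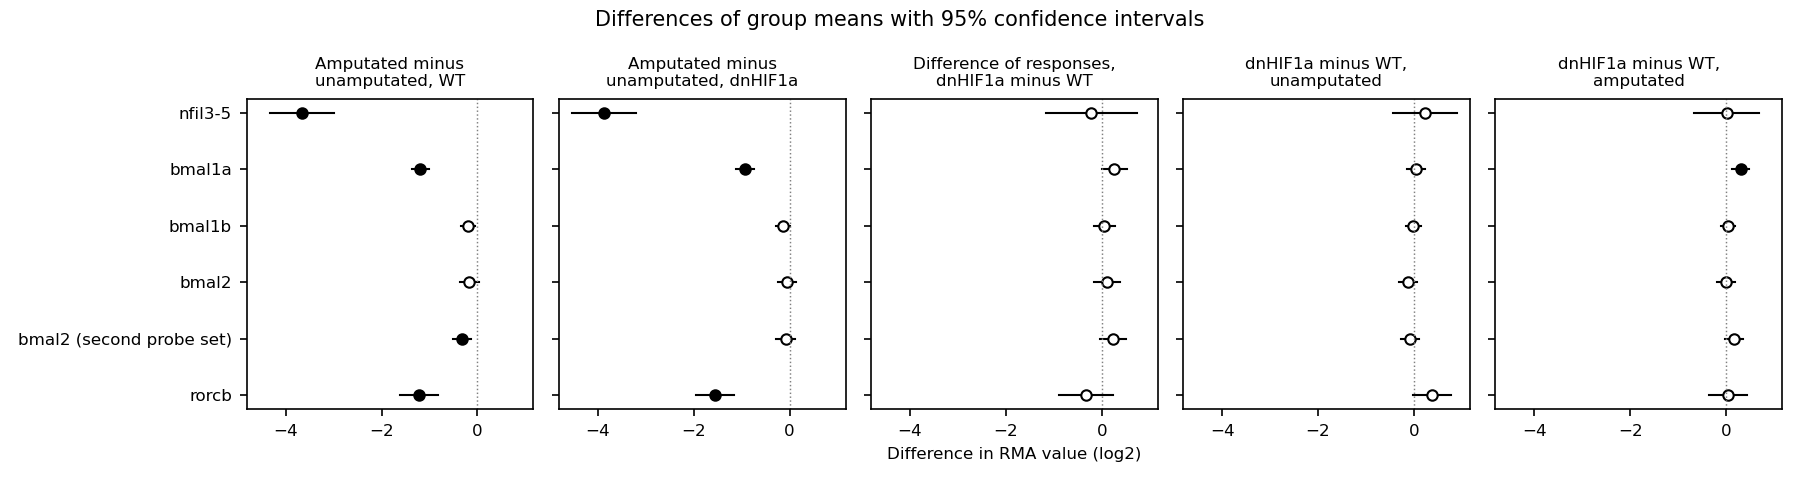
Differences of group means in log2 units (horizontal axis) for the 6 probe sets in 5 comparisons. Lines are 95% confidence intervals from limma, some hidden behind their point, and filled points were called at an adjusted p under 0.05. The falls of nfil3-5, bmal1a and rorcb in both lines stand apart from 0, and in the 3 comparisons between the lines only bmal1a in amputated hearts was called.

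Markers of some other cell populations moved with amputation too, and the part of these populations in the falls was not tested. Of 9 measured epicardium and fibroblast markers of 14 listed, 6 rose in WT and 7 in dnHIF1a, and none fell. Their mean per array ranged from 7.27 to 7.47 before and from 9.25 to 9.70 after amputation in WT, and from 7.78 to 7.93 and 9.06 to 9.28 in dnHIF1a. Of 12 measured macrophage and leukocyte markers of 18 listed, 8 rose in WT and 11 in dnHIF1a, and 0 fell. Their mean went from 7.92 to 8.15 unamputated to 8.66 to 8.95 amputated in WT, and from 6.97 to 7.16 to 8.0 to 8.32 in dnHIF1a. In whole hearts fewer cells of a type and less RNA per cell cannot be told apart.

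Erythrocyte markers passed the test in WT alone, and whether their responses differ between the lines was not examined here. Of 12 measured of 18 listed, 11 rose in WT (mean level 8.34 to 8.91 unamputated and 9.47 to 10.47 amputated). In dnHIF1a 0 of the 12 passed the test in limma, and their mean levels overlapped (8.75 to 9.54 and 8.90 to 9.92). In that line nfil3-5, rorcb and bmal1a fell by 3.88, 1.56 and 0.93, against falls by 3.66, 1.23 and 1.19 in WT. The median difference of the erythrocyte markers was 1.76 in WT and 0.21 in dnHIF1a, and their part in these falls was not tested. Only 4 of 15 lymphoid markers (rag1, rag2, gata3 and tox) had a probe set, with a mean of 4.87 to 5.15 on all arrays and none called in either line. Of 8 heart muscle markers measured of 14 listed, 2 rose and 1 fell in WT, and 2 rose and 0 fell in dnHIF1a. Of 6 neutrophil markers measured of 7 listed, 1 rose and 1 fell in WT, and 1 rose and 0 fell in dnHIF1a. Of 4 endothelium and endocardium markers measured of 10 listed, 0 rose and 1 fell in each line. Beside these marker counts, the shares over all genes were 11.7% higher and 14.5% lower in WT, and 5.83% and 5.13% in dnHIF1a.

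Neither measured paralog of nfil3-5 and rorcb was called lower after amputation. For nfil3-6, the only other nfil3 gene with a probe set, the brighter probe set read 8.77, 8.18 and 9.45 in unamputated and 10.16, 10.61 and 10.48 in amputated WT hearts. It rose there 3.07-fold (1.62 ± 0.27, limma adjusted p = 0.00135), opposite to nfil3-5. In dnHIF1a it read 9.66, 9.77 and 8.93 before and 9.24, 9.29 and 9.40 after amputation, with no called difference (-0.14 ± 0.27, limma adjusted p = 0.827). The responses of nfil3-6 differed between the lines (-1.76 ± 0.39, limma adjusted p = 0.0362). Leaving out any 1 of 10 arrays ended that call, as did the replicate block (limma adjusted p = 0.0666) and a trended and robust prior (0.0757). Of the single arrays, only unamputated WT array 3 and unamputated dnHIF1a array 3 could be left out with the call kept. Its second probe set, at 3.59 to 4.43, read 0.32 in WT (limma adjusted p = 0.0626) and -0.23 in dnHIF1a (limma adjusted p = 0.277).

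The other measured ror gene, rorab, read 7.53 to 8.04 in unamputated and 7.38 to 7.72 in amputated WT hearts, overlapping. In dnHIF1a its ranges were 7.88 to 8.13 and 8.07 to 8.21. Neither response passed the test (-0.16 ± 0.13, limma adjusted p = 0.411 in WT and 0.09 ± 0.13, limma adjusted p = 0.758 in dnHIF1a). In amputated hearts rorab was 1.43-fold higher in dnHIF1a than in WT (0.52 ± 0.13, limma adjusted p = 0.0205), a call lost without amputated dnHIF1a array 1 (limma adjusted p = 0.0794) or 2 (0.0523) or amputated WT array 3 (0.0815).

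By RefSeq's order of protein-coding genes in assembly GRCz12tu, both measured nfil3 genes lie near another gene of the family. On chromosome 6 nfil3-5 is separated from nfil3-3 by a single gene, rgl3a, and on chromosome 3 nfil3-6 adjoins nfil3-2. The bmal1 duplicates, on chromosomes 25 and 7, share part of their neighbourhood. On chromosome 25 bmal1a adjoins btbd10a, with pth1a next to it, and on chromosome 7 bmal1b adjoins btbd10b, with pth1b next to it. Their neighbours on the other side differ by name, with borcs5 next to bmal1a. The RNA of one duplicate can hybridise to probes of another where sequences match, which was not analysed here.

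The partners of BMAL had smaller differences than bmal1a. Of the 3 partner genes, clocka fell in WT (-0.24 ± 0.072, limma adjusted p = 0.0307) from 5.90 to 6.01 to a range of 5.60 to 5.78. That call was lost without unamputated WT array 2 (limma adjusted p = 0.0865) or 3 (0.069) or amputated WT array 3 (0.12), in a fit of the WT groups alone (0.102), with array weights (0.0531) and with the replicate block (0.0524). In dnHIF1a clocka read -0.15 (limma adjusted p = 0.242). Values of clockb were -0.14 and -0.19 and those of npas2 -0.05 and -0.31 in WT and dnHIF1a, with limma adjusted p between 0.0618 and 0.758. The npas2 difference in dnHIF1a passed the test without amputated WT array 1 (limma adjusted p = 0.0186), with array weights (0.0368) and in a fit of the dnHIF1a groups alone (0.0174).

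Of the genes that oppose ROR receptors and NFIL3 at their elements, 1 of 2 measured REV-ERB genes (nr1d2b) and 1 of 2 measured PAR bZIP genes (tefa) rose after amputation in both lines. The repressor receptor gene nr1d2b, of the REV-ERB family, read 8.15, 8.32 and 8.50 in unamputated and 9.57, 9.38 and 9.60 in amputated WT hearts. In dnHIF1a it read 8.23, 8.24 and 8.55 before and 9.40, 9.41 and 9.39 after. The rise was 2.29-fold in WT (1.19 ± 0.11, limma adjusted p = 1.16e-05) and 2.08-fold in dnHIF1a (1.06 ± 0.11, limma adjusted p = 7.43e-05). By a dimmer probe set nr1d2b was called higher in WT (0.24, limma adjusted p = 0.0473) and was not called in dnHIF1a (0.20, limma adjusted p = 0.136). The WT groups overlapped in that probe set, at 5.27 to 5.54 unamputated and 5.53 to 5.67 amputated.

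The other measured REV-ERB gene, nr1d2a, passed the test in neither line (0.51 ± 0.20, limma adjusted p = 0.0834 in WT and -0.51 ± 0.20, limma adjusted p = 0.136 in dnHIF1a). The D-box activator gene tefa read 8.35 to 8.93 in unamputated and 9.81 to 10.08 in amputated WT hearts. It rose 2.38-fold in WT (1.25 ± 0.14, limma adjusted p = 8.99e-05) and 1.66-fold in dnHIF1a (0.73 ± 0.14, limma adjusted p = 0.00651). A second tefa probe set rose too, by 1.14 and 0.62. The paralog tefb was not called (-0.26, limma adjusted p = 0.0657 in WT and -0.07, limma adjusted p = 0.737 in dnHIF1a). No tested probe set was matched to dbpa, dbpb, hlfa, hlfb, nr1d1, nr1d4a or nr1d4b alone.

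**Figure D3:**
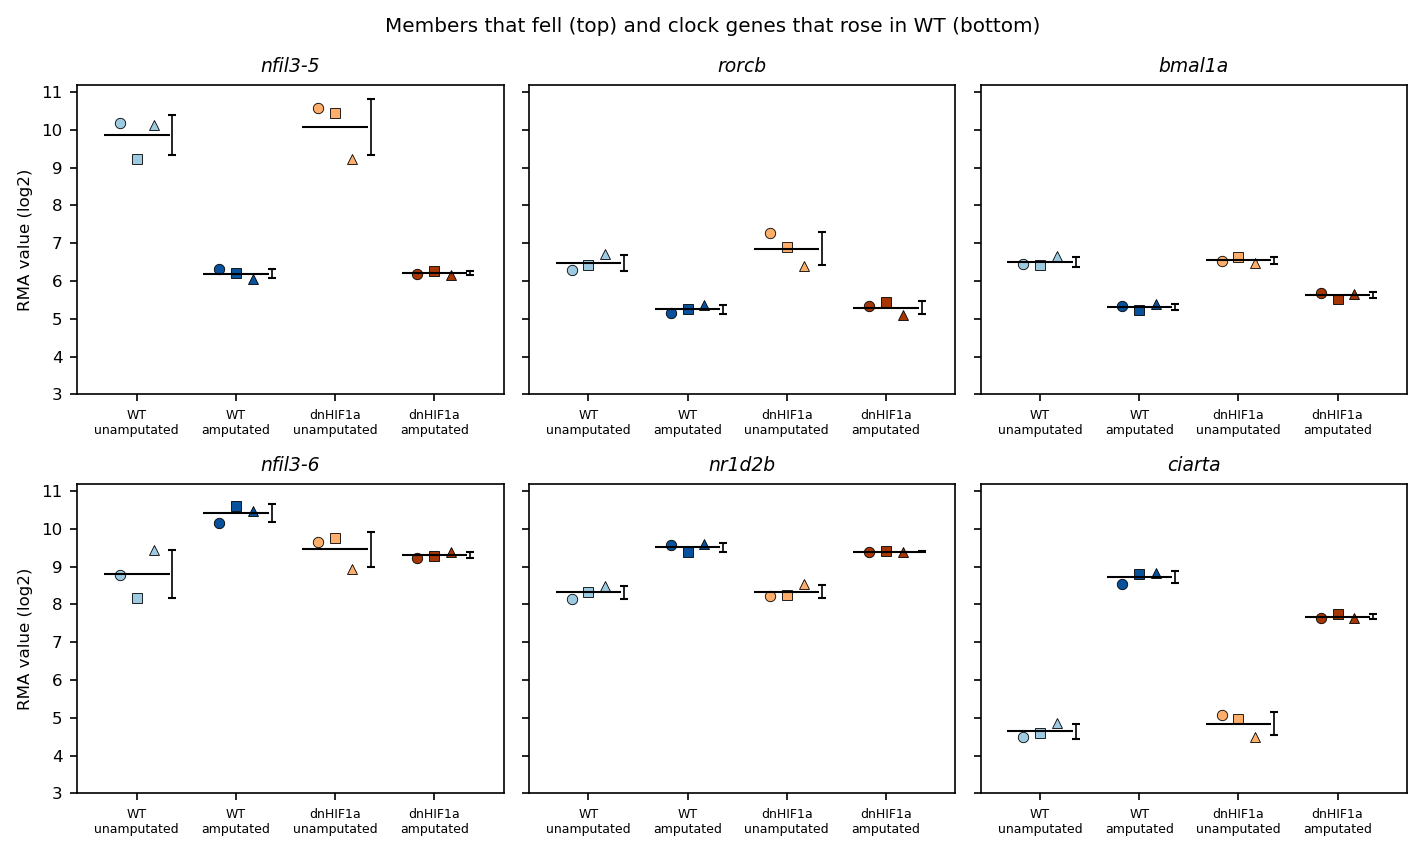
RMA values (log2, vertical axis) on the 12 arrays of the 3 genes that fell in both lines (top) and of the clock genes nfil3-6, nr1d2b and ciarta (bottom), with symbols, lines and bars as in the plot of the members. In nr1d2b and ciarta every amputated array lies above every unamputated one in both lines, whereas nfil3-6 separates in WT, at 8.18 to 9.45 against 10.16 to 10.61, and overlaps in dnHIF1a.

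The next list holds period, cryptochrome, ciart and bhlhe genes, many of which act as repressors at the E-box, together with cry4, cry5 and cry-dash, which are not established repressors of the clock. Of 13 measured, 6 rose and 3 fell in WT, and 5 rose and 3 fell in dnHIF1a. The listed genes per1a, per1b and ciartb had no tested probe set matched to them alone. The repressor gene ciarta read 4.48 to 4.86 before and 8.55 to 8.83 after amputation in WT, and 4.50 to 5.07 and 7.63 to 7.75 in dnHIF1a. It rose by 4.08 ± 0.14 and 2.83 ± 0.14, and the responses differed (-1.26 ± 0.20, limma adjusted p = 0.0101). Also higher in both lines were cry2 (1.66 and 1.46), per2 (0.52 and 1.22) and cry-dash, a photolyase relative (1.45 and 1.46). The response of per2, which light induces in zebrafish, was the larger in dnHIF1a (0.69 ± 0.14, limma adjusted p = 0.0229), a call lost without amputated dnHIF1a array 1 (limma adjusted p = 0.0633) or amputated WT array 1 (0.0575). A second per2 probe set was called in neither line (0.09 and 0.27), and a second cry-dash probe set in dnHIF1a alone (0.54, against 0.21 in WT).

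Some cryptochrome genes fell. In WT and dnHIF1a cry4 fell by 1.35 and 0.79, and cry3b by 0.66 and 0.58. In WT bhlhe40 (0.98) and bhlhe41 (2.08) rose, and cry3a fell (-0.24, limma adjusted p = 0.0441), a call lost under 12 of 19 settings. In dnHIF1a cry3a was not called (-0.08, limma adjusted p = 0.602). The dnHIF1a differences of bhlhe40 (0.65, limma adjusted p = 0.0753) and bhlhe41 (0.67, limma adjusted p = 0.12) were not called. Nor were their differences of responses (limma adjusted p = 0.613 and 0.0622). Unamputated hearts had more bhlhe41 in dnHIF1a than in WT (1.06, limma adjusted p = 0.0158), a call lost under 4 of 19 settings. In dnHIF1a cry5, the gene of a photolyase, rose (0.34, limma adjusted p = 0.045) and cry1a fell (-0.41, limma adjusted p = 0.0251). In WT cry5 (0.29, limma adjusted p = 0.0508) and cry1a (-0.14, limma adjusted p = 0.341) were not called. Their responses did not differ between the lines by the test (limma adjusted p = 0.884 and 0.38). The cry5 call was lost under 8 of 19 settings, and the cry1a call without unamputated dnHIF1a array 2 or 3 or amputated dnHIF1a array 1 or 2. A second cry5 probe set was not called in dnHIF1a (0.21, limma adjusted p = 0.0849).

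Of the 8 measured kinase and ubiquitin ligase genes of the clock, csnk1da (0.62) and csnk1db (0.33), which encode casein kinases, rose and csnk1e (-0.63) fell in WT. In dnHIF1a csnk1da (0.41) rose and fbxl3a (-0.44), the gene of a cryptochrome ligase subunit, fell. There csnk1db (0.19, limma adjusted p = 0.0768) and csnk1e (-0.04, limma adjusted p = 0.911) were not called. Nor was fbxl3a in WT (-0.20, limma adjusted p = 0.183). No difference of responses was called for csnk1da, csnk1db, csnk1e or fbxl3a (limma adjusted p = 0.311, 0.444, 0.158 and 0.44). A second csnk1da probe set rose in WT (0.61, limma adjusted p = 0.00133) and was not called in dnHIF1a (0.21, limma adjusted p = 0.266). That fbxl3a call was lost without unamputated dnHIF1a array 1 (limma adjusted p = 0.0598) or amputated dnHIF1a array 1 (0.0685) or 2 (0.0603). Over the 30 other clock genes, 11 rose and 5 fell in WT and 8 rose and 4 fell in dnHIF1a. That is 53.3% called in WT and 40.0% in dnHIF1a, against 26.2% and 11.0% of all genes. For this and the other clock lists, the shares over all genes were 11.7% higher and 14.5% lower in WT. In dnHIF1a they were 5.83% and 5.13%. The lists were chosen with earlier results of these arrays known, so their counts are a description.

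**Figure D4:**
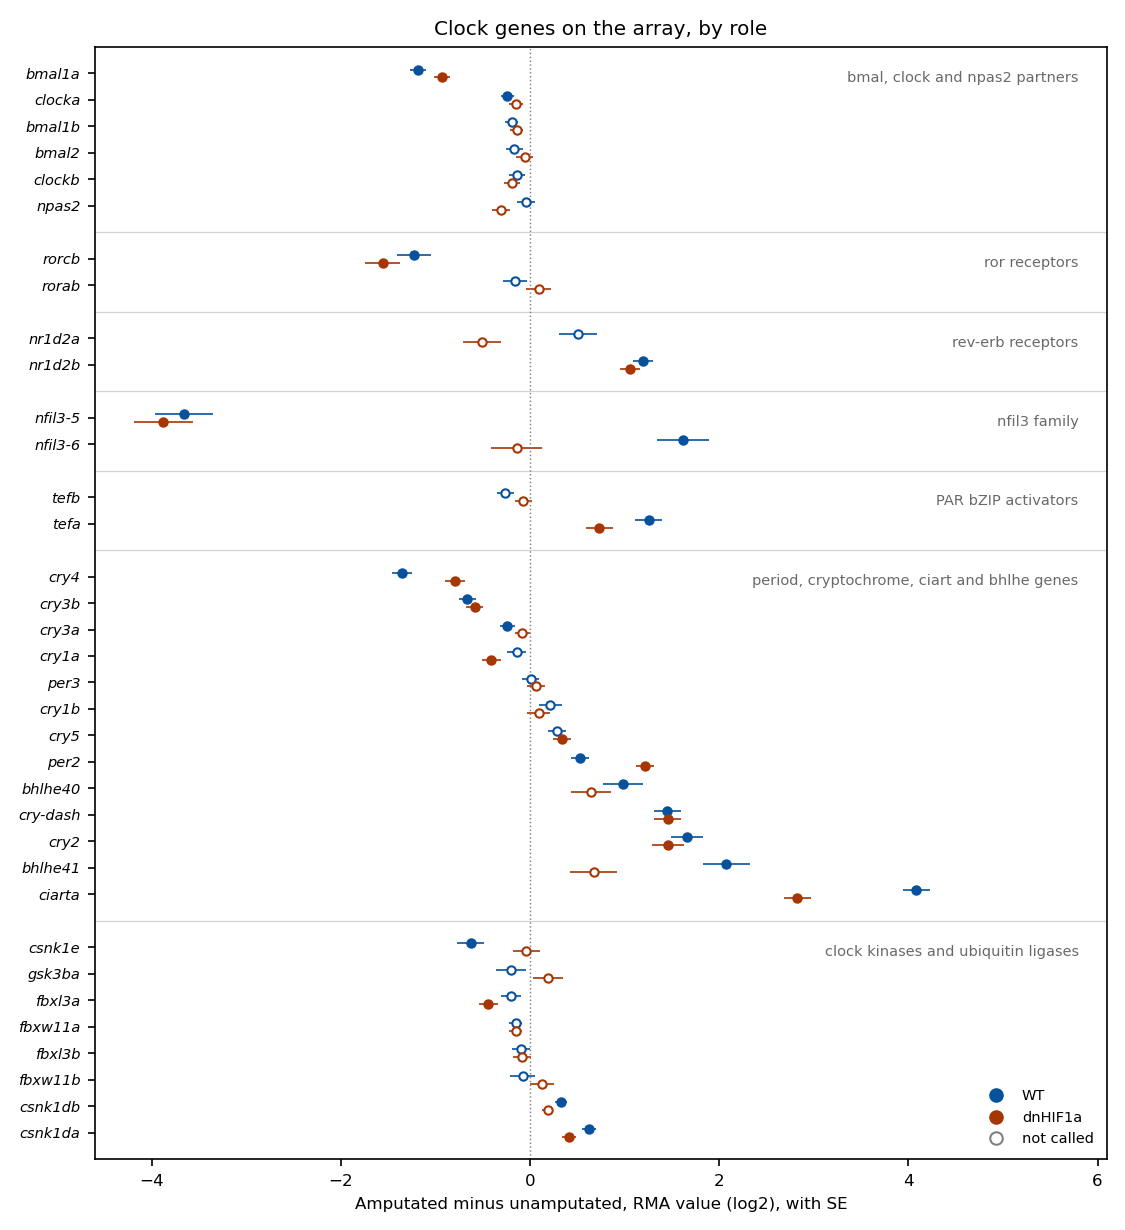
Difference between amputated and unamputated hearts in log2 units (horizontal axis, ± SE from limma) for the 35 measured clock genes, grouped by role, in WT (blue) and dnHIF1a (red). Filled points were called at an adjusted p under 0.05. The values of nfil3-5 (-3.66 and -3.88) and ciarta (4.08 and 2.83) lie at the ends of the scale.

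The genes most like nfil3-5 were sought among all named genes by Pearson's r of the 12 log2 values. With 2 amputation states behind the 12 points, a high r mostly reflects a gene that separates those states, so r is given as a description only. The highest were the tetraspanin gene cd82a (r = 0.977), the chromatin protein gene cbx1a (0.973), the zinc carrier gene slc39a6 (0.966), rorcb (0.965) and bmal1a (0.963). Both other members that fell were therefore among its 5 nearest. The lowest were nr1d2b (-0.978), pcolce2b, a gene of collagen processing (-0.974), the properdin gene cfp (-0.973), the laminin gene lamb1a (-0.964) and lmo4b (-0.962).

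For bmal1a the nearest were the muscle ligase gene trim55a (r = 0.973), sgf29 (0.967), cry3b (0.966), gid8a (0.966) and pisd (0.965). The farthest were znf395b (-0.987), tm4sf21a (-0.982), mrtfab (-0.978), ciarta (-0.977) and lmo4b (-0.975). For rorcb the nearest were lgi1a (r = 0.974), cbx1a (0.969), nfil3-5 (0.965), impdh1b (0.965) and swt1 (0.952), and the farthest brd2a (-0.955), hspb6 (-0.946), ctsla (-0.946), cry2 (-0.938) and lmo4b (-0.937). The gene lmo4b, which encodes a LIM-only cofactor, was among the 5 farthest from each of the 3 genes that fell, with rises of 1.43 in WT and 1.33 in dnHIF1a. With group means taken out its r was near 0 (-0.08 with nfil3-5, -0.09 with bmal1a and -0.09 with rorcb), and that of ciarta with bmal1a turned to 0.45. Taking out the group means moved r by over 0.1 for 10 of the 10 genes named for nfil3-5, 10 of 10 for bmal1a and 9 of 10 for rorcb.

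Values of bmal1b and bmal2 spanned 0.32 and 0.46 log2 units over the 12 arrays, so their likeness to other genes rests on small differences. The nearest to bmal1b were mmadhcb (r = 0.941), nlgn1, stk25b, hdr and wnt5b, and the farthest lats1 (-0.964), gpd1c, ccn1, txnb and rin3. The nearest to bmal2 were ntng1a (r = 0.938), ndufa4a, ambp, tll1 and slc12a4, and the farthest rps15 (-0.921), ssr2, tpm3, kdelr2b and pdcd10b. No clock gene of the lists was among them.

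Within groups, arrays also varied together in part. With each group's mean taken out, r of nfil3-5 over the 12 deviations was 0.81 with bhlhe41, 0.78 with nfil3-6, 0.65 with rorcb, 0.41 with bmal1a and -0.78 with bmal1b. The other clock genes lay between -0.56 (gsk3ba) and 0.68 (nr1d2a). Among all named genes r reached 0.94 (atpsckmt) and -0.94 (inka1b), so these values are a description only. The 2 unamputated arrays low in nfil3-5, WT array 2 and dnHIF1a array 3, were also the lowest of their groups in nfil3-6, at 8.18 and 8.93. In bhlhe41 the same dnHIF1a array read 7.30 against 8.44 and 8.62 for the others of its group. In rorcb that array was also the lowest of its group at 6.39, but WT array 2 was not, at 6.43 between 6.29 and 6.72. The collection time of single hearts is not in the labels, so its part in this spread was not tested.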

How the data were processed

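Total RNA from adult zebrafish hearts was amplified, labelled with biotin and hybridised to 12 arrays, per the labels' protocols. Per the submitters' processing notes, which name RMA and limma without version or role, the authors deposited RMA values on the log2 scale for each probe set. They were used as deposited. Of 15617 probe sets, 115 array controls were left out. The platform table gives 10795 of the 15502 tested a single gene, 135 several and 4572 none. Entrez identifiers linked 10711 of them to RefSeq symbols. A gene is read from its brightest probe set, by the mean of the 12 arrays.

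The limma fit took all 12 arrays together, with 1 coefficient for each group (R 4.3.3, limma 3.58.1, default prior, 8 residual degrees of freedom), with two-sided moderated tests and Benjamini-Hochberg adjustment over the 15502 probe sets in each of 5 comparisons. The procedure was tested on simulated data. The number of arrays limits the precision. No 2 arrays shared over 2.87% of values, so none was counted as a repeat.

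The members, the clock and marker lists, and the comparisons were chosen with earlier results of these data known. Named genes are the members, called genes and paralogs in 7 clock lists, and for each member the 5 genes with the highest and the 5 with the lowest Pearson r over the 12 arrays, among those without clone-style symbols. Same-numbered arrays of different groups correlated at -0.191 to 0.133 in their deviations from the group means, and the replicate block was therefore run only as an alternative. The others were median centring, quantile normalization once more, a filter on dim probe sets, array weights, a prior both trended and robust, a fit of only the groups compared, the other probe set of a gene, and leaving out each array in turn.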

Additional observations from a re-analysis of the deposited data

Results flagged for a closer look

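Of the 35 measured clock genes, members included, 3 had responses to amputation that differed between the lines by limma's test (dnHIF1a minus WT). Over all genes 2.59% were called for that difference. Line and time of collection cannot be told apart in these differences. The paralog nfil3-6 differed by -1.76, with a rise that passed the test in WT and not in dnHIF1a, but the call was lost under 12 of 18 alternatives. The repressor gene ciarta differed by -1.26, with a smaller rise in dnHIF1a. The gene per2 differed by 0.69, with a larger rise in dnHIF1a. That call was lost without amputated array 1 of either line, and a second per2 probe set was called in neither line.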

How the results depend on the processing

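The falls of nfil3-5, bmal1a and rorcb kept their direction and call under all 19 alternatives in both lines, with ranges in WT and dnHIF1a of -3.97 to -3.50 and -4.31 to -3.63 for nfil3-5, -1.23 to -1.11 and -0.97 to -0.88 for bmal1a, and -1.32 to -1.11 and -1.79 to -1.36 for rorcb. With the replicate block, which the labels do not describe as a pairing, 3296, 1339, 311, 1666 and 1789 probe sets were called in the 5 comparisons, against 3532, 1511, 347, 1764 and 2000 without it. That block changed no call of a member, and 3 of 12 arrays correlated best with arrays of their own number. A fit of only the WT arrays called 2338 probe sets for the WT response. Leaving out 1 array at a time gave 909 to 1774 called probe sets for the dnHIF1a response, 149 to 590 for the difference of responses and 1138 to 2317 between amputated lines. The same step gave -0.24 to -0.15 for bmal1b and -0.23 to -0.07 for bmal2 in WT, and -0.65 to 0.09 for nfil3-5 in the difference of responses. Between unamputated lines it gave -0.08 to 0.66 for nfil3-5, -0.0067 to 0.12 for bmal1a, -0.057 to 0.032 for bmal1b and 0.17 to 0.60 for rorcb. Between amputated lines it gave -0.057 to 0.068 for nfil3-5, 0.26 to 0.35 for bmal1a, -0.10 to 0.06 for bmal2 and -0.038 to 0.13 for rorcb. The second bmal2 probe set gave -0.32 in WT and 0.16 between amputated lines. Repeated quantile normalization gave 0.011 for bmal1b between unamputated lines, and array weights -0.016 for nfil3-5 between amputated ones. Among uncalled genes outside the members, leaving out 1 array gave -0.17 to 0.013 for npas2 in WT, -0.41 to 0.015 for nfil3-6 in dnHIF1a and -0.098 to 0.052 for clockb in the difference of responses. The cause of these changes was not tested. The number of arrays, and for bmal1b and bmal2 their low signal, limit what could be detected.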
